A study of Mus musculus with 8 samples.

Results

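The 10 genes described here encode enzymes that remove superoxide and hydrogen peroxide: Cat, Sod1, Sod2, Gpx1, Gpx3, Gpx4, Prdx1, Prdx4, Txn1 and Txnrd1. They were taken by name from a table of 46959 mouse genes, though with earlier results of these data known. All 10 passed the filter on low values that 13172 genes passed. RNA was sequenced from sorted pancreatic islet cells of adult mice in 8 libraries, each a pool of islets from 10 to 12 animals of 1 sex. The labels describe a triple transgenic cross: Ins1-H2b-mCherry puts a red nuclear protein under the Ins1 insulin promoter, and Gcg-cre switches on a floxed YFP allele in cells that use or once used the glucagon gene. All 3 groups came from these animals, although a second passage of the labels speaks of bitransgenic females, without saying which pools it covers. Beta cells were the red cells (3 libraries, of which replicates 1 and 2 were female and replicate 3 male). Alpha cells were the YFP cells (3 libraries, of which replicates 1 and 2 were male and replicate 3 female). Transdifferentiated cells carried both colours, which the labels read as beta cells of alpha cell descent (2 libraries, of which replicate 1 was male and replicate 2 female). Islets of every pool were kept overnight in medium with 5.5 mM glucose before trypsin dissociation and sorting.

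Superoxide dismutases turn superoxide into hydrogen peroxide. Catalase breaks peroxide down in peroxisomes, glutathione peroxidases reduce it with glutathione, and peroxiredoxins reduce it with thiols that thioredoxin and its reductase restore at the expense of NADPH. Islet beta cells are known for low catalase and glutathione peroxidase compared with liver, and proinsulin folding in their endoplasmic reticulum itself yields peroxide. Much of this enzyme set is under the transcription factor NRF2, which binds antioxidant response elements.

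The sequences of 4 members show what sets them apart as enzymes: each has a TGA inside its reading frame that is read as selenocysteine, the selenium-bearing residue at the active site. The TGA is in capitals with up to 15 coding bases on each side, from GENCODE release M21 on GRCm38. It is codon 47 of 201 in Gpx1 (chr9:108339451-108339453, plus strand), codon 73 of 226 in Gpx3 (chr11:54907256-54907258, plus strand), codon 73 of 197 in Gpx4 (chr10:80054737-80054739, plus strand) and codon 498 of 499 in Txnrd1 (chr10:82896037-82896039, plus strand).
Gpx1: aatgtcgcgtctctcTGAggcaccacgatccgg
Gpx3: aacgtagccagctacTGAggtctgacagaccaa
Gpx4: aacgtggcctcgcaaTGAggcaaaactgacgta
Txnrd1: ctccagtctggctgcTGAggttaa

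Another set of sequences marks the members whose promoter holds the core of an antioxidant response element (TGACNNNGC, searched on both strands of RefSeq promoter windows, GRCm38.p6, of 300 bases that run 250 bases upstream of each start site and 50 into the gene, 15 windows for the 10 members). It was found in Prdx1, Txnrd1 and Sod1, which is 3 of 10 members, against 14.0% of 27025 genes. Those genes, not limited to expressed ones, have 32851 windows, fewer for each gene than the members have. All 3 cores lie on the strand opposite to the gene, so the capitals below show the reverse complement, with 10 bases on each side. They start 133 bases before the start site in Prdx1 (chr4:116685456-116685484), 92 before in Txnrd1 (chr10:82859104-82859132) and 56 before in Sod1 (chr16:90220696-90220724), each printed on the plus strand, which is the strand of the gene. The Prdx1 core overlaps an AP-1 site (TGANTCA). A match is a run of letters and not a measured binding site.
Prdx1: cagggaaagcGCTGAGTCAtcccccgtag
Txnrd1: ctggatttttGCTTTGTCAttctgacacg
Sod1: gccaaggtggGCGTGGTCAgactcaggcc

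The same windows held an Sp1 box (GGGCGG, both strands) in all 10 members, against 38.2% of the same 27025 genes. A CCAAT box (CCAAT, both strands) was present in 7 members, against 41.1% of genes. The members lie apart on the genome and no other annotated gene shares exon bases with any of them. Prdx4, on chromosome X, was the single X-linked member.

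Values are the authors' RPKM, reads scaled by gene length and by library size, which allow levels of different genes to be compared as far as the gene lengths hold. Reads recovered from the steps in those values numbered 1244862 and 2168338 for the transdifferentiated pools and 12916423 to 21403753 for each beta or alpha pool, so low members of the transdifferentiated cells rest on few reads. The sort was checked on 6 markers each of alpha and beta cells: summed alpha markers reached 20271 and 20181 RPKM in transdifferentiated, 620 to 1958 RPKM in beta and 175655 to 204035 RPKM in alpha pools. Summed beta markers were at 108315 and 117552 RPKM, 148163 to 201508 RPKM and 1038 to 1368 RPKM in the same order. Markers of delta cells, PP cells and immune cells also differed between groups, and their values stand beside the results they moved with. The 6 acinar markers summed to 744 and 265 RPKM in transdifferentiated, 97.8 to 2882 in beta and 32.0 to 2150 RPKM in alpha libraries. None of them was called. The 4 duct markers summed to 252 and 303 RPKM in transdifferentiated, 262 to 397 RPKM in beta and 700 to 1719 RPKM in alpha libraries. Of the 3 tested, Spp1 was higher and Krt7 lower in alpha than in beta and in transdifferentiated cells, and the part of duct cells in the results on alpha cells was not tested. Red blood cells are rich in catalase and peroxiredoxin, and their 6 markers summed to 0.334 RPKM or less in every library. Fewer cells of a type and less RNA per cell cannot be told apart in such bulk samples. The labels speak of replicate groups of animals. The titles of beta replicates 1 and 2 share a number, as do those of alpha replicates 1 and 2. Each number in the titles goes with a single cell type and sex, so a shared number need not mean a shared pool. The labels do not settle this, and p-values measure the spread between these libraries, which may be technical in part.

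**Figure D1:**
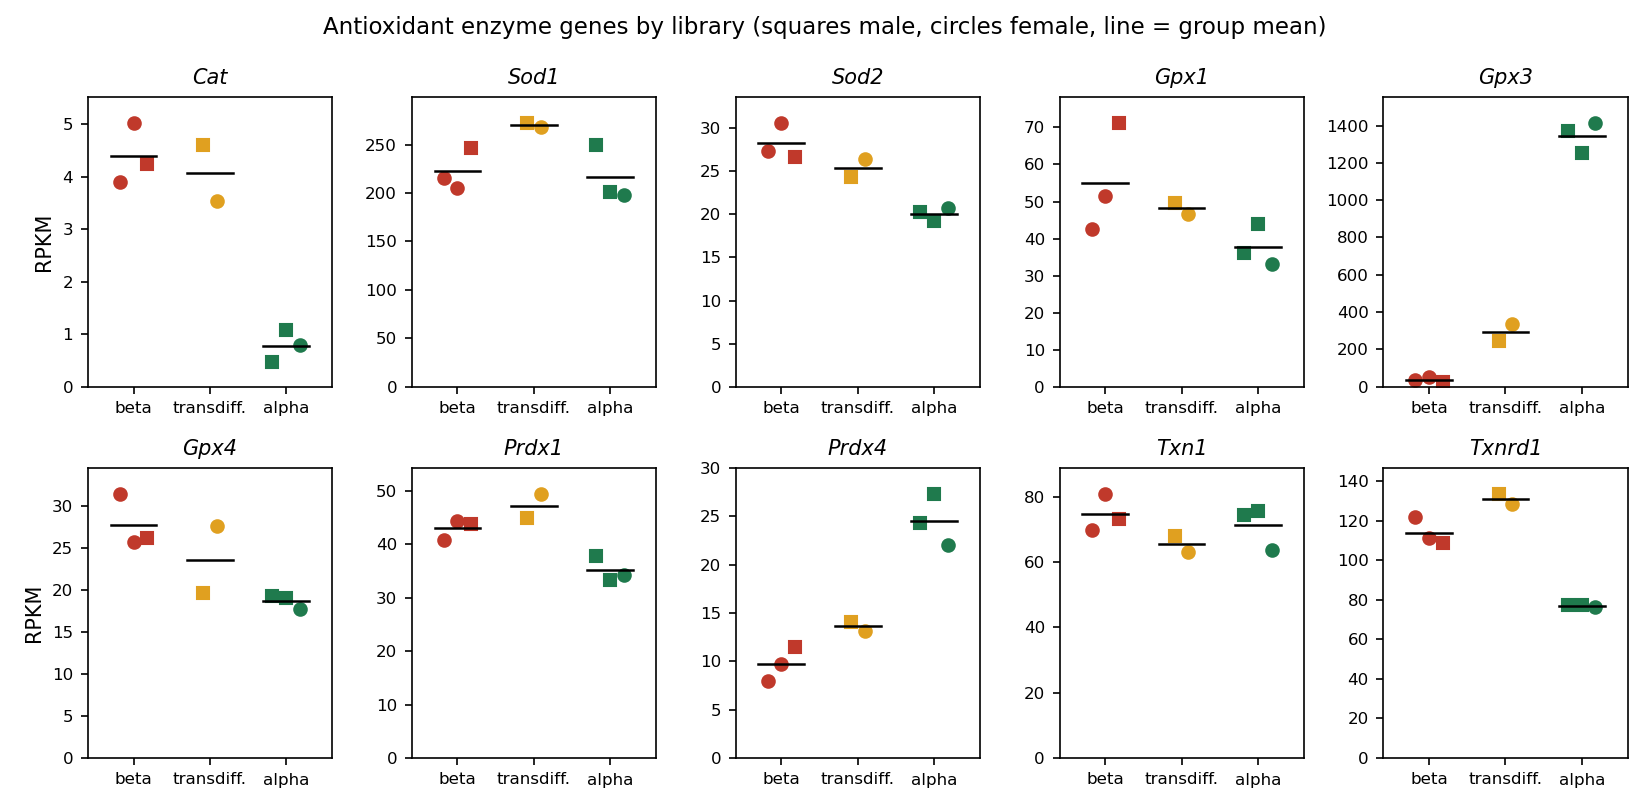
RPKM of each antioxidant enzyme gene (vertical axes, each from 0) in the beta, transdifferentiated and alpha libraries (horizontal axis). Each point is 1 library, squares are male and circles female pools, and the line is the group mean. Gpx3, Prdx1, Prdx4, Sod2 and Txnrd1 separate the 3 groups without overlap, while the other members, Txn1 among them, do not.

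The order of the members by level was much alike in the 3 groups except for Gpx3. In beta cells the highest means were those of Sod1 (222 RPKM), Txnrd1 (114 RPKM) and Txn1 (74.6 RPKM), and Gpx3 ranked 6 of 10 at 38.1 RPKM. In alpha cells Gpx3 ranked first at 1345 RPKM, above Sod1 at 216 RPKM. The transdifferentiated libraries disagreed on that order, with Sod1 (272 RPKM) above Gpx3 (246 RPKM) in replicate 1 and Gpx3 (337 RPKM) above Sod1 (268 RPKM) in replicate 2. Cat was the lowest member in every group, at means of 4.39 RPKM in beta, 4.07 RPKM in transdifferentiated and 0.782 RPKM in alpha cells.

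The 10 genes summed to 597, 616 and 640 RPKM in the beta libraries, 877 and 964 RPKM in the transdifferentiated libraries and 1750, 1881 and 1910 RPKM in the alpha libraries. The share of Gpx3 in this sum was 4.32% to 8.37% for beta libraries, 28.0% and 35.0% for the transdifferentiated pair and 71.6% to 75.2% for alpha libraries. Without Gpx3 the order turned, with sums of 467 to 540 RPKM in alpha, 562 to 612 RPKM in beta, and 631 and 627 RPKM in the transdifferentiated libraries.

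**Figure D2:**
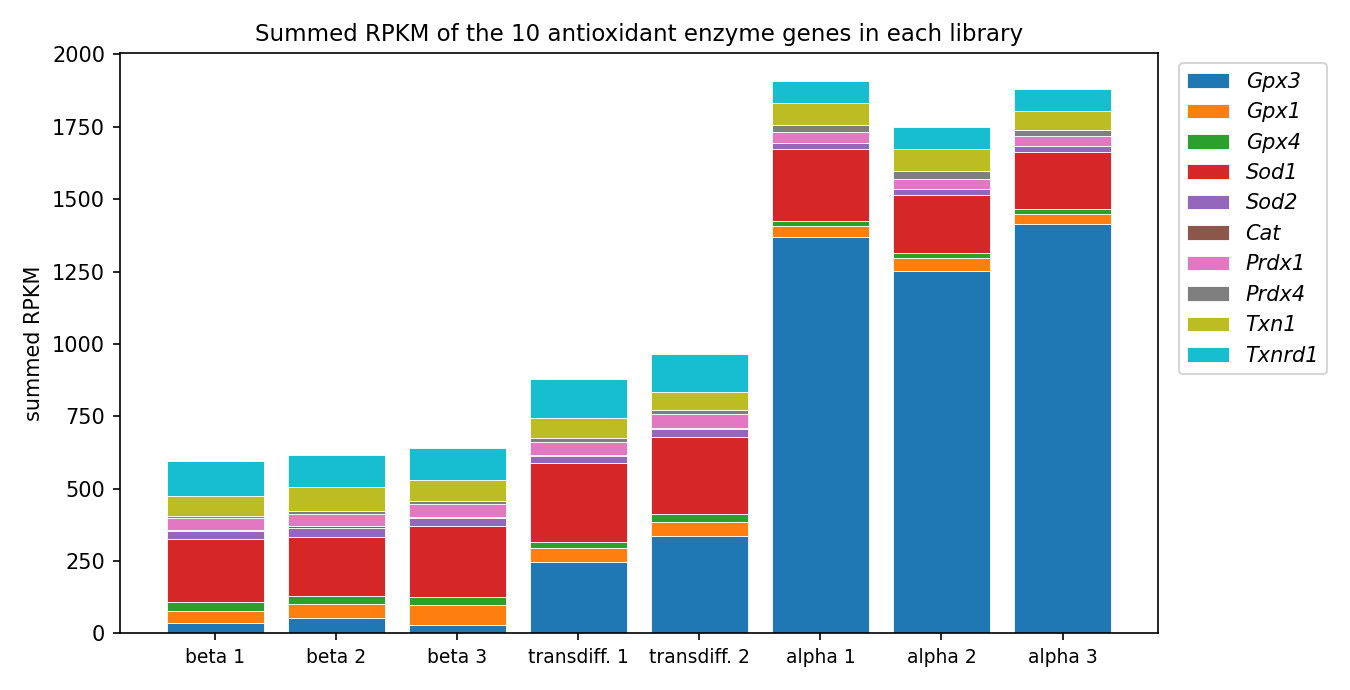
Summed RPKM of the 10 genes (vertical axis) in each library (horizontal axis), with 1 colour for each gene. The alpha bars reach 1750 to 1910 RPKM through Gpx3, and the transdifferentiated bars (877 and 964 RPKM) stand above the beta bars (597 to 640 RPKM).

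The first comparison asked how alpha and beta cells differ in these enzymes. The test was limma on log2(RPKM + 0.5), fitted once to the 8 libraries with terms for group and sex, with Benjamini-Hochberg adjustment over all 13172 genes and calls at an adjusted p under 0.05. Of the 10 members, 8 were called: Gpx3 and Prdx4 were higher in alpha cells, and Cat, Gpx1, Txnrd1, Gpx4, Sod2 and Prdx1 were lower. Across all genes 43.6% were called, 16.9% higher and 26.7% lower. The median log2 fold change was -0.37 over the members and -0.05 over all genes.

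Gpx3 encodes the secreted glutathione peroxidase of plasma. It was at 1370, 1252 and 1414 RPKM in alpha libraries 1 to 3 and at 35.1, 51.5 and 27.6 RPKM in beta libraries 1 to 3. Every alpha library lay far above every beta library, and the means of 1345 ± 83.7 RPKM (SD, n = 3) and 38.1 ± 12.2 RPKM (SD, n = 3) differ 35.3-fold. The log2 fold change was 5.30 (SE 0.17, adjusted p = 3.39e-06), and it stayed between 5.14 and 5.50 under 19 other settings, all of which called it. The ratio of Gpx3 to Gpx1, the glutathione peroxidase of the cytosol and mitochondria, was 28.6 to 42.8 in the alpha libraries and 0.388 to 1.002 in the beta libraries.

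Prdx4, the peroxiredoxin of the endoplasmic reticulum, was at 24.3, 27.3 and 22.0 RPKM in alpha and 7.99, 9.67 and 11.5 RPKM in beta libraries. The groups did not overlap, and the alpha mean was 2.53-fold higher (log2 fold change 1.22, SE 0.11, adjusted p = 0.000201).

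Cat, the catalase gene, was at 0.474, 1.08 and 0.787 RPKM in alpha and 3.90, 5.03 and 4.24 RPKM in beta libraries. Alpha cells were thus the lowest group, 5.62-fold below beta cells, with 16, 38 and 29 reads behind the 3 alpha values. Cat therefore passed the filter of 1 RPKM in 2 libraries only through the other groups. On the scale with the added 0.5, which understates changes of low genes, the log2 fold change was -1.97 (SE 0.23, adjusted p = 0.000575), against -2.52 (adjusted p = 0.000231) with limma voom on the recovered reads, which weights each value by its depth.

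Txnrd1, the cytosolic reductase that restores thioredoxin, was at 77.6, 77.2 and 76.5 RPKM in alpha and 122, 112 and 109 RPKM in beta libraries. Its alpha values hardly varied and all lay below the beta values (log2 fold change -0.56, SE 0.08, adjusted p = 0.00146), though the call was lost with quantile normalization (adjusted p = 0.0875). Its substrate Txn1 was at 63.8 to 75.6 RPKM in alpha and 69.9 to 80.8 RPKM in beta libraries, which overlap, and its log2 fold change of -0.10 (SE 0.10) missed the threshold at an adjusted p of 0.427.

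Of the dismutases, mitochondrial Sod2 was lower in alpha cells, at 20.2, 19.3 and 20.8 RPKM against 27.4, 30.6 and 26.7 RPKM (log2 fold change -0.45, SE 0.08, adjusted p = 0.00436). Cytosolic Sod1 was at 250, 201 and 198 RPKM in alpha and 216, 205 and 246 RPKM in beta libraries. The Sod1 groups overlap, and its log2 fold change of -0.10 (SE 0.11, adjusted p = 0.502) did not pass.

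The other 3 called members changed by less than 1 log2 unit and were less stable. Gpx1 was at 33.0 to 43.8 RPKM in alpha and 42.7 to 71.2 RPKM in beta libraries (log2 fold change -0.63, SE 0.14, adjusted p = 0.0108). Gpx4, which reduces lipid peroxides, was at 17.8 to 19.2 RPKM against 25.7 to 31.4 RPKM (-0.51, SE 0.14, adjusted p = 0.0229). Prdx1, the cytosolic peroxiredoxin, was at 33.3 to 37.7 RPKM against 40.8 to 44.3 RPKM (-0.29, SE 0.09, adjusted p = 0.0367). Quantile normalization kept the calls of Gpx3, Prdx4 and Cat alone and turned the sign of Prdx1 to 0.07, and leaving out beta replicate 3 or alpha replicate 3 left 5 members called.

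**Figure D3:**
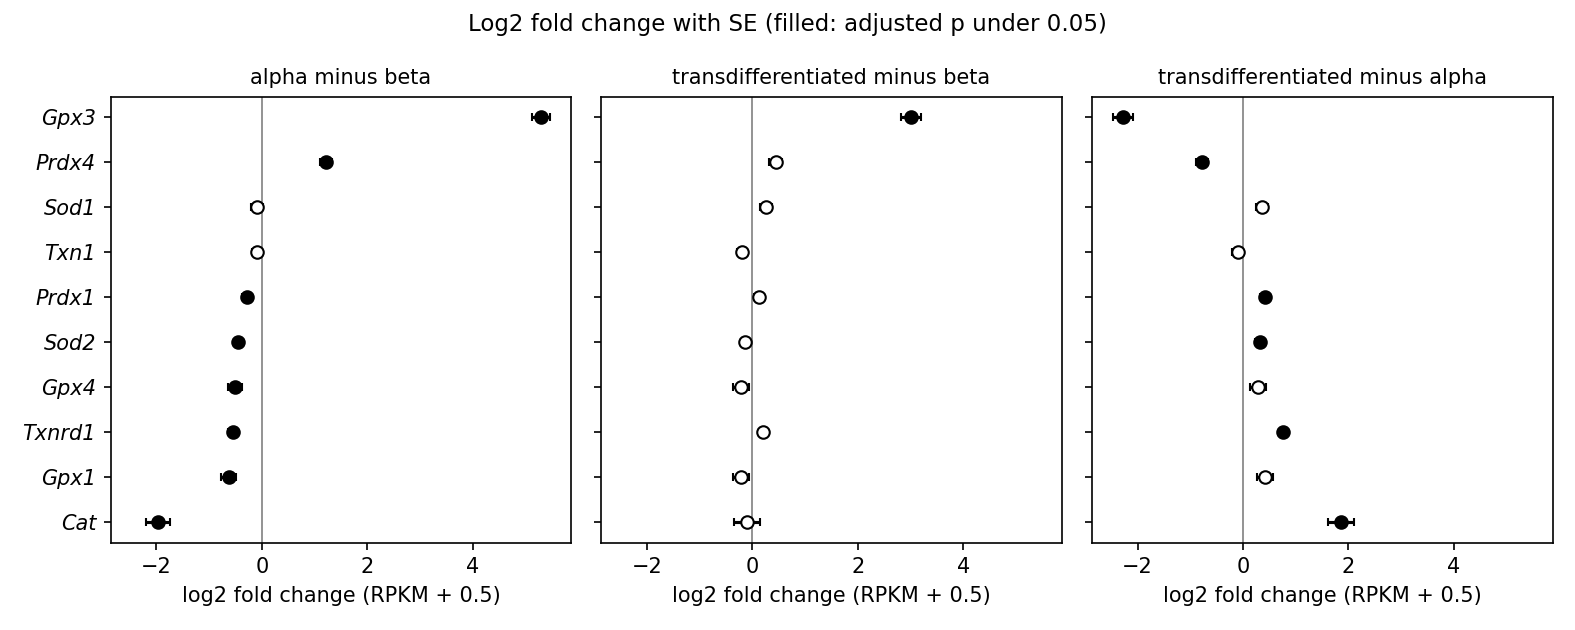
Log2 fold change of each member (horizontal axis, on the RPKM + 0.5 scale) in alpha minus beta, transdifferentiated minus beta and transdifferentiated minus alpha cells. Bars are the standard error and filled points passed the test; Gpx3 lies farthest from 0 in all 3 panels, from 5.30 to -2.28.

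Transdifferentiated cells were next compared with beta cells, the cells whose insulin reporter they share. Of the 10 members 1 was called, Gpx3, which was higher, while 12.0% of all genes were called (9.10% higher and 2.90% lower). Another 2 members had an unadjusted p under 0.05: Prdx4 and Txnrd1. The median log2 fold change over members was 0.01, against 0.09 over all genes.

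Gpx3 was at 246 and 337 RPKM in the transdifferentiated libraries, from 555 and 1326 reads. Both values lay above the beta range of 27.6 to 51.5 RPKM and below the alpha range of 1252 to 1414 RPKM. The mean of 292 ± 64.6 RPKM (SD, n = 2) was 7.66 times the beta mean, and the log2 fold change against beta cells was 3.01, with an SE of 0.19 and an adjusted p of 0.00106. With limma voom it was 3.03 (adjusted p = 0.000571), and all 19 other settings called it.

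On a linear scale from the beta mean (0%) to the alpha mean (100%), Gpx3 stood at 15.9% and 22.9% in the 2 transdifferentiated libraries, and Gcg, the glucagon gene, stood at 10.3% and 10.2%. Gpx3 was at 12.7 and 17.7 RPKM for each 1000 RPKM of Gcg in these libraries, against 6.97 to 8.22 in alpha and 29.1 to 73.4 in beta libraries. Sst, Hhex and Rbp4, the delta cell markers, summed to 3093 and 2965 RPKM in the transdifferentiated libraries, 312 to 890 RPKM in the beta and 1370 to 3196 RPKM in the alpha libraries. Ppy, the PP cell hormone gene, was at 6155 and 4419 RPKM, 344 to 822 RPKM and 4126 to 6215 RPKM in the same order. Against beta cells these markers moved with Gpx3. Between transdifferentiated and alpha cells none of them was called, while Gpx3 was lower in transdifferentiated cells. The part of such cells in the level of Gpx3 was not tested.

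Prdx4 was at 14.1 and 13.1 RPKM in the transdifferentiated libraries, from 37 and 60 reads. Both values exceeded all 3 beta libraries, but the log2 fold change of 0.44 (SE 0.12, adjusted p = 0.0558) missed the threshold. With a term for the letter b, which marks the titles of beta and alpha replicates 2 and 3 and which the labels do not explain, its adjusted p was 0.0246, whereas none of the other 18 settings called it, with adjusted p-values up to the 0.211 of limma voom. Txnrd1 was at 134 and 129 RPKM, above the beta range of 109 to 122 RPKM, and its log2 fold change of 0.20 (SE 0.085, adjusted p = 0.153) did not pass.

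Cat stood at 4.61 and 3.53 RPKM in transdifferentiated cells, from 15 and 20 reads, across the beta range of 3.90 to 5.03 RPKM. Its log2 fold change was -0.11 (SE 0.25, adjusted p = 0.792), and the counting interval of 95% around the first value alone ran from 2.58 to 7.61 RPKM. Sod1 was at 272 and 268 RPKM, above the beta range of 205 to 246 RPKM (log2 fold change 0.26, SE 0.12, adjusted p = 0.185). Sod2 was at 24.4 and 26.4 RPKM, below the beta range of 26.7 to 30.6 RPKM (-0.13, SE 0.09, adjusted p = 0.337).

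The other 4 members had log2 fold changes between -0.22 and 0.13 against beta cells and adjusted p-values of 0.236 to 0.392. Gpx1 (49.6 and 46.7 RPKM) and Gpx4 (19.6 and 27.6 RPKM) overlapped the beta libraries. Prdx1 (44.9 and 49.4 RPKM) lay just above them, and with median-ratio scaling its log2 fold change changed sign to -0.04. Txn1 (68.0 and 63.2 RPKM) lay just below them.

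The comparison of transdifferentiated with alpha cells, the cells whose lineage mark they carry, called 6 of 10 members, against 29.9% of all genes (23.2% higher and 6.67% lower). Cat, Txnrd1, Prdx1 and Sod2 were higher in transdifferentiated cells, and Gpx3 and Prdx4 were lower. The median log2 fold change was 0.33 over members and 0.17 over all genes. These values share the transdifferentiated libraries with the comparison above and the alpha libraries with the first one, so the 3 sets of fold changes are not independent.

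Gpx3 was 4.61-fold lower in transdifferentiated than in alpha cells (log2 fold change -2.28, SE 0.19, adjusted p = 0.000275). Prdx4 reached 55.6% of its alpha mean (-0.78, SE 0.12, adjusted p = 0.0036). Cat was 5.21-fold higher (1.86, SE 0.25, adjusted p = 0.00194), although its transdifferentiated values rest on 15 and 20 reads. Txnrd1 was 1.70-fold higher (0.76, SE 0.085, adjusted p = 0.00097), and both its values exceeded all alpha and all beta libraries. Each of these calls was also made by limma voom, with adjusted p-values of 0.000121, 0.0459, 0.00836 and 0.00112 in the same order, and under every other setting tried, except that Cat does not reach a mean of 10 RPKM and was not tested there.

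Prdx1 was higher by 0.42 on the log2 scale (SE 0.10, adjusted p = 0.0174) but was not called under 6 of 19 other settings. Sod2 was higher by 0.31 (SE 0.09, adjusted p = 0.033) and was not called under 13 of 19, limma voom among them (adjusted p = 0.105). Of the members not called, Sod1 differed by 0.36 on the log2 scale (SE 0.12, adjusted p = 0.06), Gpx1 by 0.42 (SE 0.15, adjusted p = 0.081), Gpx4 by 0.29 (SE 0.15, adjusted p = 0.193) and Txn1 by -0.10 (SE 0.10, adjusted p = 0.522). With median-ratio scaling 2 members were called higher and 2 lower, and with quantile normalization 2 higher and 3 lower, where the deposited RPKM gave 4 and 2. The term for the letter b ended the calls of Prdx1 (adjusted p = 0.0541) and Sod2 (adjusted p = 0.0676) and gave one to Gpx1 (0.61, adjusted p = 0.0197).

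None of the 10 members was called between female and male pools by limma, where 0.0456% of all genes were called, and limma voom called none either. An unadjusted p under 0.05 was found for 3 members. Gpx3 was higher in females (log2 fold change 0.39, SE 0.15, adjusted p = 0.843), and Gpx1 (-0.34, SE 0.12, adjusted p = 0.843) and X-linked Prdx4 (-0.24, SE 0.10, adjusted p = 0.843) were lower. The values behind Gpx3 were 246 (male) and 337 RPKM (female) in transdifferentiated, 27.6 (male) against 35.1 and 51.5 RPKM (female) in beta, and 1370 and 1252 (male) against 1414 RPKM (female) in alpha cells. The female value was the higher one in each group.

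Other genes of oxidant handling were read from a list of 81 genes in 7 classes, of which 67 passed the filter. The list, too, was written with earlier results of these data known. In alpha minus beta cells 46 of them (68.7%, against 43.6% of all genes) were called, 40 lower and 6 higher, with a median log2 fold change of -0.47 against -0.05 over all genes. Against alpha cells, transdifferentiated cells had 32 higher and 4 lower (53.7% called, against 29.9% of all genes), with a median of 0.43 against 0.17. Against beta cells they had 6 higher and 7 lower (19.4% called, against 12.0% of all genes), with a median of -0.04 against 0.09.

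The NRF2 class held NRF2 itself as Nfe2l2, partners, targets, Hmox2 and the repressors Keap1 (-0.53 in alpha minus beta cells) and Bach1 (-0.64). Repressors and targets were counted alike, so its counts give no direction of the pathway. In alpha minus beta cells all 10 genes were called, 9 lower and Mafg higher, where 26.7% of all genes were lower and 16.9% higher. The same split held with median-ratio scaling, quantile normalization and limma voom, and 6 were called, all lower, without alpha replicate 3. Hmox1, haem oxygenase, was at 14.0, 19.4 and 14.6 RPKM in alpha and 166, 83.2 and 108 RPKM in beta libraries (log2 fold change -2.74, SE 0.31, adjusted p = 0.000505). It stood at 57.6 and 103 RPKM in transdifferentiated cells, higher than in alpha cells (2.21, SE 0.33, adjusted p = 0.00323) and overlapping the beta libraries. Macrophages also express Hmox1, and the 6 immune markers summed to 81.0 to 92.8 RPKM in beta, 9.12 to 26.7 RPKM in alpha, and 29.0 and 19.3 RPKM in transdifferentiated libraries. Of the 5 immune markers tested, 5 were lower in alpha and 4 lower in transdifferentiated than in beta cells, and 2 were higher in transdifferentiated than in alpha cells. Ptprc, the pan-leukocyte gene, was at 0 in both transdifferentiated libraries, which have the fewest reads, and at that depth a 0 does not show absence. The part of immune cells in these values was not tested. Between transdifferentiated and alpha cells 7 of the 10 NRF2 class genes were called, all higher (6 with median-ratio scaling, all higher), where 23.2% of all genes were called higher.

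The glutathione transferase gene Gstm1, whose close relatives could share its reads, was lower in alpha than beta cells (-2.90 on the log2 scale, SE 0.30, adjusted p = 0.00033) and higher in transdifferentiated than alpha cells (3.43, SE 0.32, adjusted p = 0.000445). It was at 148 and 103 RPKM in transdifferentiated, 70.4, 79.0 and 101 RPKM in beta and 17.7, 7.43 and 11.3 RPKM in alpha libraries. Both transdifferentiated values exceeded all others, but the comparison with beta cells did not pass (0.53, SE 0.32, adjusted p = 0.299). Gpx2, a selenium-dependent cytosolic glutathione peroxidase, was higher in transdifferentiated than alpha cells (1.89, SE 0.22, adjusted p = 0.0012). Xdh, xanthine dehydrogenase, was at 0.186, 0.617 and 0.557 RPKM in alpha and 5.71, 5.87 and 3.89 RPKM in beta libraries, so that it passed the filter only through the other groups. It was lower in alpha cells (-2.46, SE 0.21, adjusted p = 0.000162), and by -3.43 with limma voom (adjusted p = 4.69e-05).

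Ero1lb, the oxidase that drives disulfide bonds in the endoplasmic reticulum and yields peroxide, had its group means in the order opposite to Prdx4 of the same compartment. It was at 262, 221 and 200 RPKM in beta, 105 and 112 RPKM in transdifferentiated and 21.3, 24.8 and 24.4 RPKM in alpha libraries, with no overlap between groups. The log2 fold changes were -3.19 in alpha minus beta (SE 0.11, adjusted p = 3.39e-06), -1.03 in transdifferentiated minus beta (SE 0.11, adjusted p = 0.00471) and 2.16 in transdifferentiated minus alpha cells (SE 0.11, adjusted p = 5.01e-05).

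Genes higher in alpha than beta cells were Gpx7, another endoplasmic reticulum peroxidase (1.33, SE 0.28, adjusted p = 0.00841), Txnip, the thioredoxin inhibitor (0.97, SE 0.20, adjusted p = 0.00693), Sesn1 (0.62), Prdx2 (0.50), Pstk (0.49) and Mafg (0.40). Higher in transdifferentiated than beta cells were Gpx7 (1.41, SE 0.30, adjusted p = 0.0297), Txnip (1.11, SE 0.21, adjusted p = 0.0231), Pstk (0.71), the malic enzyme gene Me1 (0.58), Mafg (0.47) and Gclc (0.41). Lower there were Ero1lb, the monoamine oxidase gene Maob (-0.79), Maff (-0.77), the transketolase gene Tkt (-0.58), Glrx (-0.57), Gsr (-0.50) and Idh1 (-0.41). Most of these calls against beta cells were near the threshold: limma voom called 4 of the 67 genes, namely Gpx7, Txnip, Ero1lb and Maob, and leaving out beta replicate 1 or beta replicate 3 left 1. Txnip differed widely within the transdifferentiated pair, at 76.2 and 34.7 RPKM, and so did Gpx7, at 1.87 and 5.01 RPKM. In beta libraries Gpx7 was at 0.956, 0.798 and 0.974 RPKM, so that it passed the filter only through the other groups.

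Against alpha cells the 4 genes lower in transdifferentiated cells were Txnrd3 (-0.62), Maoa (-0.51), Maob (-0.50) and Prdx2 (-0.38), none of which limma voom called. Selenoprotein synthesis, which 4 members need, had 2 of 6 genes (33.3%) called in alpha minus beta cells, below the 43.6% of all genes, with Sephs2 lower (-1.50, SE 0.11, adjusted p = 8.12e-05) and Pstk higher. Sephs2 makes the selenium donor, and like Glrx, Gsr, Idh1, Gclc and Mafg it was named after its values were seen.

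**Figure D4:**
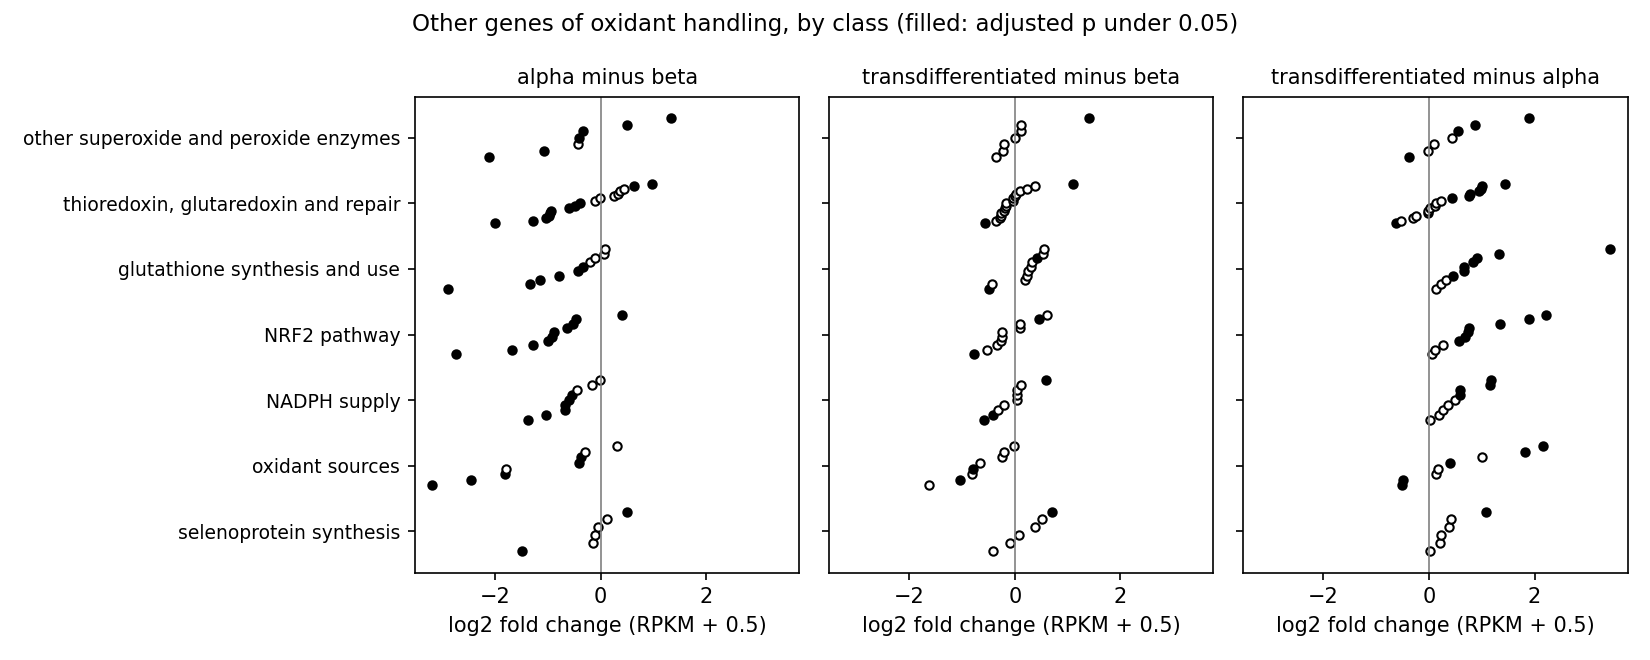
Log2 fold change (horizontal axis, RPKM + 0.5 scale) of the 67 tested list genes by class (vertical axis) in the 3 comparisons. Each point is a gene and filled points passed the test; most filled points lie below 0 in alpha minus beta cells (40 of 46) and above 0 in transdifferentiated minus alpha cells (32 of 36).

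The scaling of the table bears on these directions. Of the genes called over the whole table, 75.8% were higher in transdifferentiated minus beta and 77.6% in transdifferentiated minus alpha cells, against 47.3% and 49.7% with median-ratio scaling and 55.2% and 49.9% with quantile normalization. Median-ratio scaling shifted the median of all genes from 0.09 to -0.06 and from 0.17 to -0.05. In alpha minus beta cells 38.8% were higher, and 50% with quantile normalization. For the list of 67 genes, median-ratio scaling gave 2 higher and 10 lower against beta cells and 21 higher and 5 lower against alpha cells, and quantile normalization gave 2 and 6, and 24 and 6.

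The genes most like a member in pattern were found by Pearson correlation over the 8 libraries among 4845 genes, as a description, since the libraries of a group share their cell type. For Gpx3 these were Edn3 (r = 0.998), the endothelin 3 gene, Smarca1 (0.997), a chromatin remodeller gene, and Pdk4 (0.996), the pyruvate dehydrogenase kinase gene. Pdk4 was at 13.3 and 14.3 RPKM in transdifferentiated, 0.305 to 1.08 RPKM in beta and 97.9 to 127 RPKM in alpha libraries, the same order of groups as Gpx3. For Cat they were Golga7 (0.996), Ptbp3 (0.995) and Tlk1 (0.992). For Prdx4 they were Zfp395 (0.994), Cryba2 (0.989) and Tmsb4x (0.985).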

How the data were processed

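Per the labels' protocols, RNA was taken into Trizol after sorting and libraries were made with TruSeq RNA v2, which does not mark strand. The authors deposited RPKM per gene and library; the submitters' processing notes name GRCm38.p4, edgeR 3.14.0, STAR 2.5 and featureCounts. With exon lengths from GENCODE M21, the RPKM steps of 78.5% of 25353 matched genes were whole reads (within 0.01 of a read). Lengths of 6874 others were solved from their steps, which gave reads for 26785 of 26786 expressed genes. Among these were Sod1, Sod2 and Txnrd1, solved at 646, 3824 and 3417 bases, where GENCODE M21 gives 3970, 10008 and 7086. Their ranks and their shares of the summed RPKM rest on the length used. Entries with repeated names (4) were left out.

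limma 3.58.1 (R 4.3.3, eBayes with trend) was run on log2(RPKM + 0.5) for genes at 1 RPKM or more in at least 2 libraries and tested on simulated data, where it made more false calls than limma voom in comparisons with the shallow transdifferentiated libraries. Alternatives changed the pseudocount, filter, scaling, terms, libraries or trend, or used limma voom on recovered reads. The list genes named were the 4 called with the largest change in each direction, and the 3 members with the widest group range were correlated. Members and lists were chosen with earlier results of these data known. Counting intervals cover counting error only. Txn-ps1, a Txn1 pseudogene that could share its reads, was at 0.302 RPKM or less.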

Additional observations from a re-analysis of the deposited data

Results flagged for a closer look

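For 2 members the difference between cell groups had opposite signs in male and female pools, with every library on its side. Each sex has only 1 or 2 libraries in a group, so that criterion is easily met. Cat in transdifferentiated minus beta cells differed by 0.11 in males and -0.29 in females on the log2 scale, and Txn1 in alpha minus beta cells by 0.04 in males and -0.23 in females. The counting interval of 95% around the male transdifferentiated value of Cat (2.58 to 7.61 RPKM) covers every beta value. The difference between sexes was not tested, and neither gene passed the test in those comparisons.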

How the results depend on the processing

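No paired analysis was run, and the labels give no replicate number shared between groups. By the sex and the letter b in their titles, libraries of different groups could be fractions of the same pools. The labels do not say so. If they are, the main fit, with sex but not the letter as a term, left that pairing out. Of 19 alternatives to each comparison between groups, Gpx3 kept its call and direction in all. The number of members called in alpha minus beta cells (8) fell to 3 with quantile normalization and ranged from 5 (without beta replicate 3 or alpha replicate 3) to 8 when single libraries were left out. In transdifferentiated minus beta cells it rose from 1 to 2 with the letter b as a term, and in transdifferentiated minus alpha cells it ranged from 4 to 6. List genes called against beta cells (13) fell to 4 without the filter, 8 with quantile normalization, 4 with limma voom, 1 with the 2 groups fitted alone and 5 without the variance trend, and ranged from 1 (without beta replicate 1 or 3) to 10; in alpha minus beta cells the range was 30 (without alpha replicate 3) to 50. The genes called over the whole table against beta cells ranged from 235 (without beta replicate 3) to 1649. The cause was not tested. With 1 transdifferentiated library left, it is assumed to vary like the other groups.

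Signs turned for values near 0. In transdifferentiated minus beta cells Prdx1 was at -0.0386 with median-ratio scaling, and Cat at 0.148 with the letter b as a term and at -0.29 to 0.107 when single libraries were left out. In alpha minus beta cells quantile normalization put Sod1 at 0.109, Prdx1 at 0.0705 and Txn1 at 0.263. In female minus male pools Prdx1 was at -0.0007 with quantile normalization and -0.013 with limma voom, and Cat at 0.0382 with limma voom. Leaving out single libraries there gave -0.0456 to 0.036 for Prdx1, -0.17 to 0.0536 for Cat and -0.0323 to 0.0396 for Txnrd1.

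Depth is lowest for Cat, Prdx4 and Gpx4 in transdifferentiated cells, at 15 to 103 reads a library.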
